A study of Mus musculus with 2 samples.

Results

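Transcripts of 10 genes used as markers of pericytes and vascular smooth muscle were followed in the heart apex of mouse embryos at E12.5. The genes are set by name, a choice made with earlier results of these data known: Rgs5, Rgs4, Pdgfrb, Pdgfb, Cspg4 and Abcc9 from the pericyte side, and Tagln, Cnn1, Lmod1 and Smtn from smooth muscle. All 10 had a single row in the table, among 29383 genes after rows of 1 symbol were summed. The 2 groups were each sequenced as 1 library of total RNA from 8 combined heart apices. The control, labelled Nkx2-5cre, Ezh2f/+, carries 1 floxed copy of Ezh2, and the mutant, Nkx2-5cre, Ezh2f/f, carries 2. Both groups therefore carry Cre under Nkx2-5, a gene of the heart lineage, and the control can lose 1 Ezh2 copy itself. The Ezh2 protein is the methyltransferase of Polycomb repressive complex 2 and modifies lysine 27 of histone H3. With 1 library a genotype the spread between pools was not measured, and the genotypes were compared without a p-value. Each interval is a 95% exact interval of counting error only.

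Pericytes and smooth muscle cells, together called mural cells, wrap the endothelial tube of blood vessels. Endothelial cells secrete platelet-derived growth factor B, the product of Pdgfb, and mural cells are recruited through its receptor, the product of Pdgfrb. Contractile genes of smooth muscle are driven by serum response factor and its partner myocardin, which bind CArG boxes in their promoters. In the embryo several of them, Tagln, Cnn1 and the smooth muscle actin gene Acta2 among them, are also transcribed in heart muscle cells, so their RNA in a whole apex does not mark vessels alone. Fewer cells of a type and less RNA per cell cannot be told apart in such bulk samples.

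The promoter windows of the 3 markers whose reads differed by the largest factors, Rgs5, Rgs4 and Lmod1, are shown to let the reader compare their CpG content. Each runs from 250 bases before to 50 bases after the start given by RefSeq on build GRCm38.p6. The sequence is printed 5′ to 3′ on the strand of the gene, with every CpG dinucleotide in capitals. The windows lie at chr1:169655251-169655550 on the plus strand for Rgs5, chr1:169747593-169747892 on the minus strand for Rgs4, and chr1:135324563-135324862 on the plus strand for Lmod1.
Rgs5: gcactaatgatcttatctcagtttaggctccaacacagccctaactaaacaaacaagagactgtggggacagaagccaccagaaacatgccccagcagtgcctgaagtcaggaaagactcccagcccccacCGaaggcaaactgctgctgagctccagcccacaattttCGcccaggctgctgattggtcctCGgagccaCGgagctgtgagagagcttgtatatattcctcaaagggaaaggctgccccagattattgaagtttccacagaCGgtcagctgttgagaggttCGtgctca
Rgs4: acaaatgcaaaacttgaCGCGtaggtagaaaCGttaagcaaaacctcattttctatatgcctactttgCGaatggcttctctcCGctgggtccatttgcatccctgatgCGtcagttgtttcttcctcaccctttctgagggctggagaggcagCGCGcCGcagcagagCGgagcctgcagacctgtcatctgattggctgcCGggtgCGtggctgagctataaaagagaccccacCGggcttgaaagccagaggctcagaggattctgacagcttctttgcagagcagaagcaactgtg
Lmod1: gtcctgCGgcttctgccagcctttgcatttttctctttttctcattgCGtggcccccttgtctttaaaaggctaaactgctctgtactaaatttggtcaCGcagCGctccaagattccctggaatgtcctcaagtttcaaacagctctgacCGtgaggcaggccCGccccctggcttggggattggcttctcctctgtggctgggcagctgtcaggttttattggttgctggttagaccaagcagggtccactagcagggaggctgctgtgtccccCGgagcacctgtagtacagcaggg
The Rgs5 window held 6 CpG dinucleotides, Lmod1 7 and Rgs4 13, beside a median of 7 over all 32851 windows in the table. Of the other matched markers, Cnn1 had 6, Smtn 11, Abcc9 16 and Cspg4 17, so that all 7 matched markers lay between the quartiles of all windows (3 and 20). A CArG box (CC, then 6 bases that are A or T, then GG; the motif reads the same on both strands) was in 0 of the 7 windows and in 1.63% of all windows. The letters TATAAA, searched on both strands, were found in Rgs4 alone of the 7, beside 13.6% of all windows. Only these exact forms were searched, so a CArG box that differs by a base was not counted. Such a match or its absence describes these 300 bases only. Pdgfrb, Pdgfb and Tagln had no window in the table.

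Library totals were 13944617 reads in the heterozygous pool and 14122579 in the mutant, so that 1 CPM (a count per 1e6 reads, scaled for composition by TMM) stood for about 13.5 and 14.6 reads. Ezh2 had 493 reads against 319, a mutant-to-heterozygote ratio of 0.601 (0.521 to 0.694), in the direction of the labels. The labels call the cells cardiomyocytes and name no sort. The 15 cardiomyocyte markers summed to 59588 CPM in the heterozygous pool and 59021 CPM in the mutant, and markers of endothelium (1237 and 1201 CPM) and of fibroblasts and mesenchyme (1416 and 1402 CPM) were present beside them. Of 16 other pericyte genes listed, 12 reached 1 CPM in a library, among them Notch3 with 326 and 379 reads and Kcnj8 with 74 and 42. Of the rest, Atp13a5 had no read in either library, Higd1b had 3 and 0, Vtn 0 and 3, and Foxd1 1 and 9. Myh11, the myosin heavy chain of differentiated smooth muscle, had 25 reads in the heterozygous pool and 13 in the mutant. The markers described here are therefore named for the cells they are known from, without a claim that mural cells held their transcripts in these libraries.

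The 10 markers did not share 1 direction. Rgs5 was far lower in the mutant, Pdgfb and Abcc9 were slightly lower, Pdgfrb and Cnn1 were near the control, and Tagln, Cspg4, Smtn and Lmod1 were higher, Cspg4 and Smtn by little once a trend of the ratios with GC content was removed. The log2 ratio used below is log2((mutant CPM + 1)/(heterozygote CPM + 1)), and a gene was tested for size when its higher level was at least 1 CPM. Of the 10 markers 9 passed this floor, all but Rgs4. Rgs5 passed through its heterozygote level alone and Lmod1 through its mutant level alone. At least 2-fold lower was 1 marker of the 9, Rgs5, where 0.173% of 16185 genes were, and 0 of the 9 were at least 2-fold higher, where 0.605% of genes were. Counting intervals lay wholly below a ratio of 1 for 3 of the 9 (Rgs5, Pdgfb and Abcc9), against 19.1% of genes, and wholly above 1 for 4 (Cspg4, Tagln, Lmod1 and Smtn), against 17.4%. How often an interval leaves out 1 rests on a gene's depth as well as on its ratio. The median log2 ratio of the 9 was -0.02, close to that of all genes tested (-0.008).

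**Figure D1:**
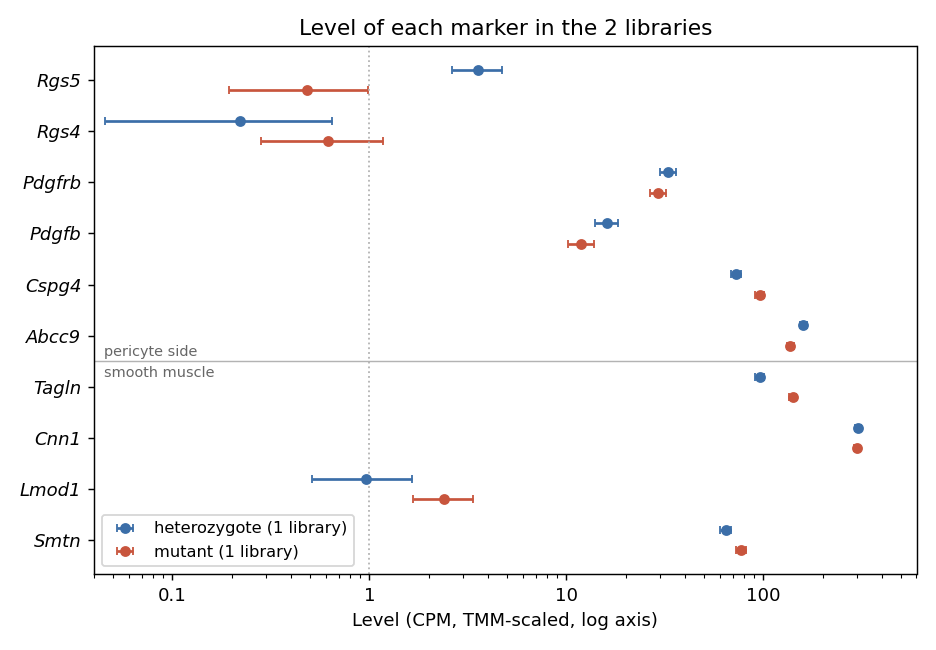
Level of each of the 10 markers in CPM on a log axis, with the heterozygote library in blue and the mutant library in red, and bars for the 95% exact Poisson interval of the count. Levels run from 0.222 CPM (Rgs4, heterozygote) to 303 CPM (Cnn1, heterozygote), and the levels lie farthest apart for Rgs5, at 3.55 and 0.481 CPM, while those of Lmod1 are 0.961 and 2.40 CPM.

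Rgs5 and Rgs4 encode regulators of G-protein signalling, which speed the switching-off of G-protein alpha subunits, and Rgs5 is among the markers most used for pericytes. Rgs5 (chromosome 1, 171585632 to 171623657, plus strand, in the coordinates of the files, whose build the sources used here do not name) had 48 reads in the heterozygous pool and 7 in the mutant. Its level was 3.55 CPM (2.62 to 4.70) against 0.481 CPM (0.193 to 0.991), and the count intervals did not overlap. The heterozygote-to-mutant ratio was 7.38 (3.32 to 19.3) and the log2 ratio -1.62, the 4th lowest of the 16185 genes tested. Rgs5 entered this ranking through its heterozygote level alone, and its log2 ratio ran from -2.65 to -0.64 with the choice of pseudocount. In the authors' deposited table its ratio of heterozygote to mutant was 6.945. The deposited p-values come from a test that is not named and that compares 2 libraries, not the conditions. They were smaller for Tagln and Cspg4 than for Rgs5.

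Rgs4 (171671608 to 171677773, minus strand), a gene known from heart and brain, lies 48 kb from Rgs5 on chromosome 1. It had 3 reads in the heterozygous pool and 9 in the mutant, a ratio of 2.79 whose interval reached from 0.696 to 16.0, so that no difference was detectable at this depth. Of the remaining genes within 300 kb of Rgs5, looked at after these values were seen, Nuf2 had 718 and 595 reads (ratio 0.770, 0.690 to 0.860), Hsd17b7 534 and 405 (0.705, 0.618 to 0.803) and Ddr2 48 and 46 (0.890, 0.581 to 1.36). Of 3 models listed there under a sequence ID alone, 1 had 57 and 77 reads (1.26, 0.880 to 1.80), and the other two, which cover the same span, had 27 and 26 each (0.895, 0.502 to 1.59). The intervals of these 6 models lay above that of Rgs5 (0.0517 to 0.301) without overlap, while 1700084C01Rik, with 1 read and 0, was too scarce to compare. Other genes of the RGS family, listed by name, went both ways: of 17 that were found, 9 passed the floor, 6 above 0 and 3 below, with 0 at least 2-fold apart and a median log2 ratio of 0.05. Rgs3 had a ratio of 0.913 (0.839 to 0.994) and Rgs12 1.06 (0.934 to 1.20; a log2 ratio of 0.08 that went to -0.09 without the GC trend).

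Other pericyte genes were, as a list, near the control. Of 16 listed, 12 passed the floor, 9 with a log2 ratio above 0 and 3 below, with 0 at least 2-fold apart and a median of 0.11 (-0.004 once a trend with GC content and transcript length was removed). Their summed level was 410 CPM in the heterozygous pool and 406 CPM in the mutant. Mcam alone made up 235 and 208 CPM of these sums, and the rest of the list summed higher in the mutant. Mcam, a cell adhesion molecule of mural and endothelial cells, had 3173 reads against 3030 (ratio 0.887, 0.844 to 0.933). Tbx18, a T-box factor of epicardium and mural cells, had 564 against 742 (1.22, 1.09 to 1.37). Notch3, the Notch receptor of mural cells, had 326 against 379 (1.08, 0.929 to 1.26), and its log2 ratio of 0.11 went to -0.23 once the GC trend was removed. Kcnj8, a pericyte potassium channel subunit described with Abcc9 below, was the lowest of the list.

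**Figure D2:**
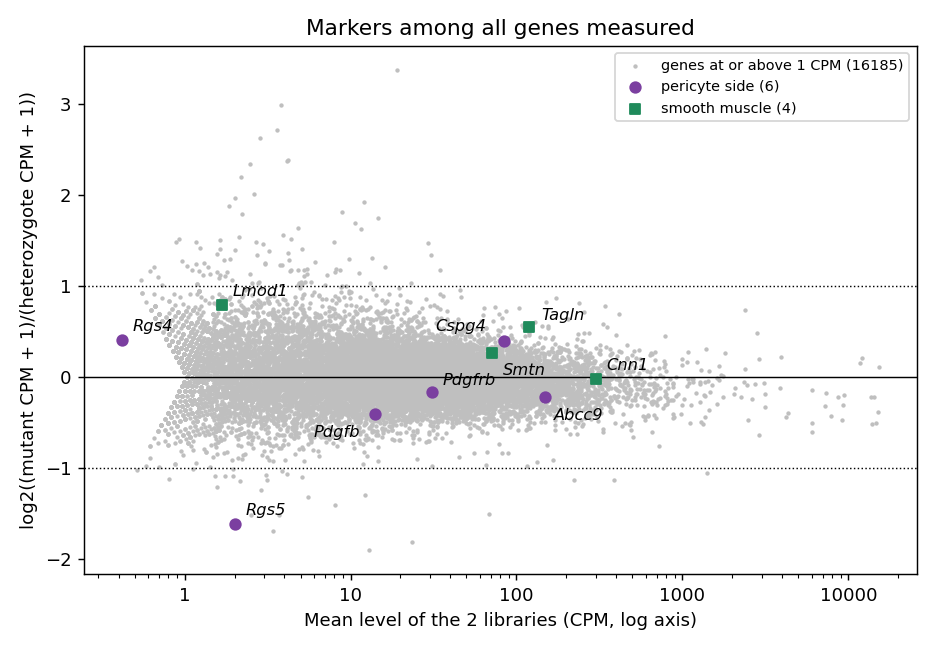
Log2 ratio of mutant over heterozygote against mean level (CPM, log axis) for the 16185 genes at or above 1 CPM in grey, with the 6 pericyte-side markers as purple circles and the 4 smooth muscle markers as green squares. Dotted lines mark 2-fold, and Rgs5 at -1.62 is the single marker beyond them.

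The platelet-derived growth factor pair was lower or near the control. Pdgfb (chromosome 15, 79826306 to 79845238), the endothelial ligand, had 217 reads in the heterozygous pool and 173 in the mutant. Its level was 16.0 CPM (14.0 to 18.3) against 11.9 CPM (10.2 to 13.8). The ratio was 0.741 (0.603 to 0.909), and the log2 ratio of -0.40 was -0.63 once the GC trend was removed. Under TMM scaling the count intervals of the libraries did not overlap, by a narrow margin (13.98 CPM against 13.79 CPM at the facing limits). Under total-count scaling the ratio was 0.787 (0.641 to 0.966). Pdgfrb (chromosome 18, 61205095 to 61244713), the receptor on mural cells, had 445 reads against 426, or 32.9 CPM (29.9 to 36.1) against 29.3 CPM (26.5 to 32.2). Its ratio of 0.890 had an interval of 0.777 to 1.02 that holds 1. The log2 ratio of Pdgfrb was -0.16, and -0.34 once the GC trend was removed.

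Beside Pdgfb stand the endothelial markers, since endothelium is its known source: of 15 listed, 7 were above 0 and 8 below, with a median log2 ratio of -0.03 (0.05 under total-count scaling) and 0 at least 2-fold apart. Once the GC trend was removed, 0 of the 15 were above 0 and 15 below, with a median of -0.12. The median of all genes tested was then -0.02. Some other lists also lay mostly below 0 (other smooth muscle genes 7 above and 22 below, cardiomyocyte markers 4 and 11). Others did not (other pericyte genes 6 and 6, other RGS genes 6 and 3). The summed level of the endothelial markers was 1237 CPM in the heterozygous pool and 1201 CPM in the mutant, and none was at 0 reads. Cdh5, the cadherin of endothelial junctions, had 3277 reads against 3278 (ratio 0.929, 0.885 to 0.976). Its log2 ratio of -0.11 went to -0.02 under total-count scaling. The co-receptor gene Eng had 2022 against 2290 (1.05, 0.991 to 1.12), with a log2 ratio of 0.07 that went to -0.11 without the GC trend. The part of endothelial content in the Pdgfb value was not tested. The other 5 genes of the family had a median log2 ratio of 0.07, with no counting interval that left out 1. Pdgfa, a ligand of the alpha receptor, had 243 reads against 283 (1.08, 0.908 to 1.29), and Pdgfra, the alpha receptor of mesenchymal cells, 578 against 654 (1.05, 0.939 to 1.18).

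Cspg4 (chromosome 9, 56712911 to 56747677) encodes NG2, a membrane proteoglycan of pericytes that is also known from the embryonic heart. It had 984 reads in the heterozygous pool and 1394 in the mutant, or 72.7 CPM (68.3 to 77.4) against 95.8 CPM (90.8 to 101). The mutant library was higher by a ratio of 1.32 (1.21 to 1.43), opposite in direction to Rgs5. Its transcript is 59.2% GC, and once the trend of log2 ratio with GC content and length was removed its log2 ratio went from 0.39 to 0.06. That trend had a Spearman rho of 0.443 with GC content across 10861 genes, which do not count as independent replicates.

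Abcc9 (chromosome 6, 142536382 to 142650794) encodes SUR2, the regulatory subunit of ATP-sensitive potassium channels in muscle and pericytes. It had 2160 reads in the heterozygous pool and 2000 in the mutant, or 160 CPM (153 to 167) against 137 CPM (131 to 144). The ratio was 0.860 (0.809 to 0.915), and the log2 ratio of -0.22 was -0.23 once the GC trend was removed. An antisense model inside the gene had 79 and 51 reads, and without strand its reads cannot be told from those of Abcc9. Kcnj8, which encodes the pore subunit that pairs with SUR2 in pericytes and smooth muscle, lies 16.5 kb away and had 74 reads against 42, a ratio of 0.527 (0.352 to 0.780). Kcnj11, the pore subunit of heart muscle cells, was higher in the mutant, with 476 reads against 694 (1.35, 1.20 to 1.53). The alternative regulatory subunit gene Abcc8 had 94 reads against 108 (1.07, 0.802 to 1.42), with a log2 ratio of 0.08 that went to -0.14 without the GC trend. The 2 pore subunit genes of the channel thus went opposite ways, and the 3 partners together had 0 genes at least 2-fold apart.

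**Figure D3:**
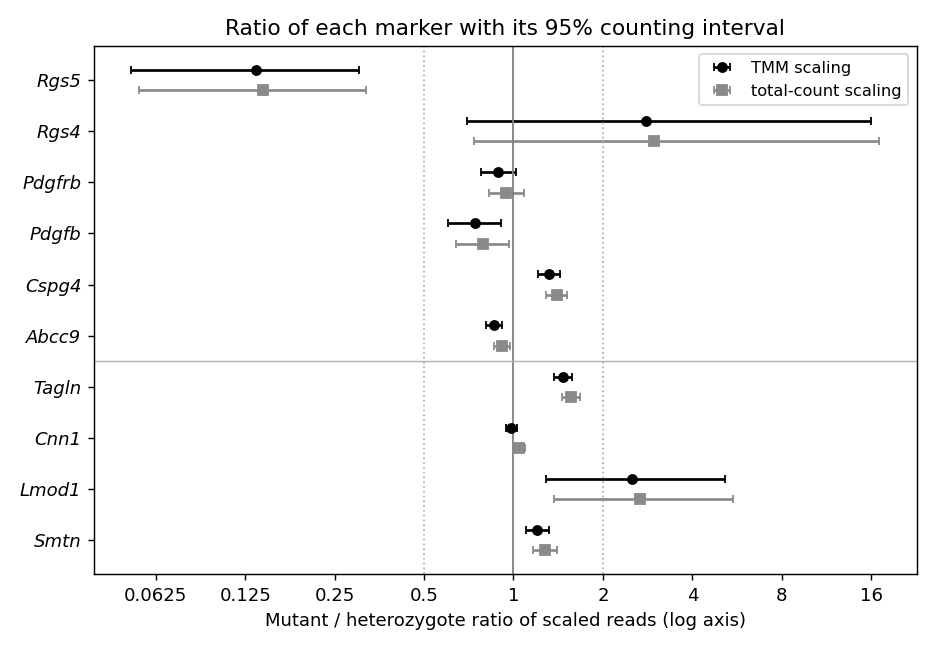
Mutant-to-heterozygote ratio of each marker on a log axis with its 95% exact counting interval, under TMM scaling (black circles) and total-count scaling (grey squares). Dotted lines mark ratios of 0.5 and 2, and the scaling decides for Cnn1 whether the interval holds 1 (0.942 to 1.03 under TMM, 1.001 to 1.09 under total counts).

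Of the 4 smooth muscle markers 3 were higher in the mutant, none by 2-fold on the scale with the pseudocount. Tagln (chromosome 9, 45737711 to 45743981) encodes transgelin, an actin-binding protein that is an early marker of the smooth muscle lineage. It had 1298 reads in the heterozygous pool and 2053 in the mutant, or 96.0 CPM (90.8 to 101) against 141 CPM (135 to 147). The ratio of 1.47 (1.37 to 1.58) is the largest among the markers above 1 CPM in both libraries, and its log2 ratio was 0.55, or 0.58 once the GC trend was removed. The end of the Pcsk7 model overlaps the Tagln model by 95 bases. Pcsk7 had 380 reads against 407 (ratio 0.995).

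Lmod1 (chromosome 1, 137221390 to 137264642), the smooth muscle leiomodin that nucleates actin filaments, was scarce in both libraries. It had 13 reads in the heterozygous pool and 35 in the mutant, or 0.961 CPM (0.512 to 1.64) against 2.40 CPM (1.67 to 3.34). The plain ratio was 2.50 (1.29 to 5.15), while adding a pseudocount of 1 CPM gave a log2 ratio of 0.80 and adding 0.1 CPM gave 1.24, so that the pseudocount decides whether Lmod1 counts as 2-fold higher. Smtn (chromosome 11, 3417526 to 3439242) encodes smoothelin, an actin-associated protein of contractile smooth muscle. It had 873 reads against 1129, or 64.5 CPM (60.3 to 69.0) against 77.6 CPM (73.1 to 82.2), a ratio of 1.20 (1.10 to 1.31). With 60.1% GC in its transcript, its log2 ratio went from 0.26 to 0.02 once the GC trend was removed.

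Cnn1 (chromosome 9, 21903725 to 21914074), which encodes the actin- and myosin-binding protein calponin 1, had the most reads of the 10 markers. It had 4098 reads in the heterozygous pool and 4336 in the mutant, or 303 CPM (294 to 312) against 298 CPM (289 to 307), with count intervals that overlap. The ratio was 0.983 (0.942 to 1.03) under TMM scaling and 1.04 (1.001 to 1.09) under total-count scaling, which shifts log2 ratios taken without a pseudocount by 0.09. The direction of Cnn1, and whether its interval holds 1, thus depended on the scaling.

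Other smooth muscle contractile and cytoskeletal genes did not share a direction with Tagln. Of 31 listed, 29 were in the table and passed the floor, 10 above 0 and 19 below, with 0 at least 2-fold apart and a median of -0.08 (0.004 under total-count scaling). Acta2, the smooth muscle actin that is also made in embryonic heart muscle, had 14980 reads against 13629, a ratio of 0.845 (0.826 to 0.865). Myh11 had a ratio of 0.483 (0.227 to 0.981) on 25 and 13 reads, and under total-count scaling its interval of 0.241 to 1.04 held 1. Myl9, a regulatory light chain of smooth muscle, had 21398 reads against 25089 (1.09, 1.07 to 1.11) and the tropomyosin gene Tpm1 34170 against 34714 (0.944, 0.930 to 0.958; above 1 under total-count scaling). Acta2, with a ratio of 0.898 (0.878 to 0.919) under total-count scaling, was thus lower and Tagln higher within the same pair of libraries. The list was summed at 9692 CPM in the heterozygous pool and 9380 CPM in the mutant. It also holds genes of heart muscle, such as Lmod2, so its counts and sum do not describe smooth muscle alone.

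The regulators of these genes went both ways. Of 9 genes of the serum response factor and myocardin group, 6 were above 0 and 3 below, with a median log2 ratio of 0.06 (-0.06 once the GC trend was removed). Srf, the factor that binds CArG boxes, had 1665 reads against 1621 (ratio 0.905, 0.844 to 0.969). Myocd, its cardiac and smooth muscle co-activator, had 1431 against 1751 (1.14, 1.06 to 1.22). The log2 ratio of Srf was -0.14, and -0.46 once the GC trend was removed, while that of Myocd was 0.18 and 0.13. Under total-count scaling the log2 ratio of Srf was -0.06 and that of Myocd 0.27.

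**Figure D4:**
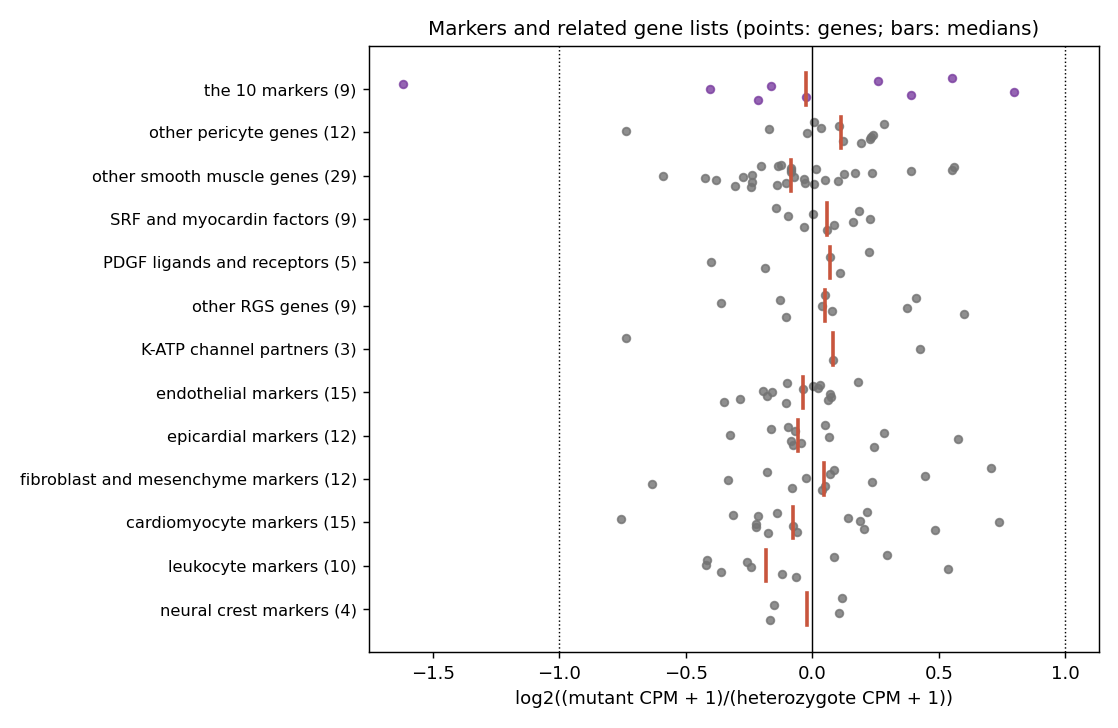
Log2 ratio of mutant over heterozygote (x axis) for the genes at or above 1 CPM of the 10 markers (purple) and of 12 lists of related genes and cell type markers (grey), with list medians as red bars and the number of genes in brackets. The medians of the lists lie between -0.18 and 0.11, and no listed gene other than Rgs5 lies beyond the dotted lines at 2-fold.

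Markers of the other cell types of the apex were set beside these values. Cardiomyocyte markers had a median log2 ratio of -0.07 (0.01 under total-count scaling), 6 of 15 above 0, with Myl2 at 208859 and 192809 reads (ratio 0.858, 0.852 to 0.863) and Myh7 at 152537 and 189136 (1.15, 1.14 to 1.16; a log2 ratio of 0.20 that went to -0.02 without the GC trend). The counting intervals of 6 cardiomyocyte markers lay above 1 (17.4% of all genes) and those of 9 below (19.1%). Their ratios ran from Pln at 0.591 (0.574 to 0.608) to Myl7 at 1.67 (1.64 to 1.70). Fibroblast and mesenchyme markers had a median log2 ratio of 0.04 (-0.007 without the GC trend), 7 of 12 above 0. Col1a1 was at 1.03 (0.991 to 1.07), with a log2 ratio of 0.04 that went to -0.25 without the GC trend, and Col1a2 at 0.946 (0.908 to 0.985; above 1 under total-count scaling). Epicardial markers had -0.06 (0.03 under total-count scaling), 5 of 12 above 0, a summed level of 278 and 280 CPM, and Upk3b at 0.934 (0.848 to 1.03). Leukocyte markers had -0.18, 3 of 10 above 0, a summed level of 58.8 and 51.6 CPM, with C1qb at 0.764 (0.614 to 0.948) and Csf1r at 0.835 (0.685 to 1.02). Of neural crest markers 4 passed the floor with a median of -0.02 (0.05 under total-count scaling), led by Ednrb (0.890, 0.847 to 0.934) and Erbb3 (1.09, 0.792 to 1.50). In each of these lists 0 genes were at least 2-fold apart. The part of these cell types in the marker values was not tested.

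Levels were compared between genes per kilobase of the longest GENCODE transcript. Cnn1 led in both libraries, at 127 CPM per kilobase in the heterozygous pool and 125 in the mutant, followed by Tagln at 60.2 and 88.4. Abcc9 (21.3 and 18.3) was above Smtn (19.1 and 22.9) in the heterozygous pool and below it in the mutant. Cspg4 had 8.96 and 11.8, Pdgfrb 6.07 and 5.40, and Pdgfb 5.45 and 4.04. Below 1 CPM per kilobase lay Rgs5 (0.866 and 0.117), Lmod1 (0.243 and 0.609) and Rgs4 (0.0754 and 0.210), so that Rgs5 was the highest of these 3 in the heterozygous pool and the lowest in the mutant. In the mutant the order of Rgs5 and Rgs4 rests on 7 and 9 reads. Their count intervals there overlap (0.193 to 0.991 CPM and 0.283 to 1.17 CPM). Among the genes above the 1 CPM floor that had a length, Cnn1 was at percentile 97.0 and 97.2 and Tagln at 93.5 and 95.9.

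**Figure D5:**
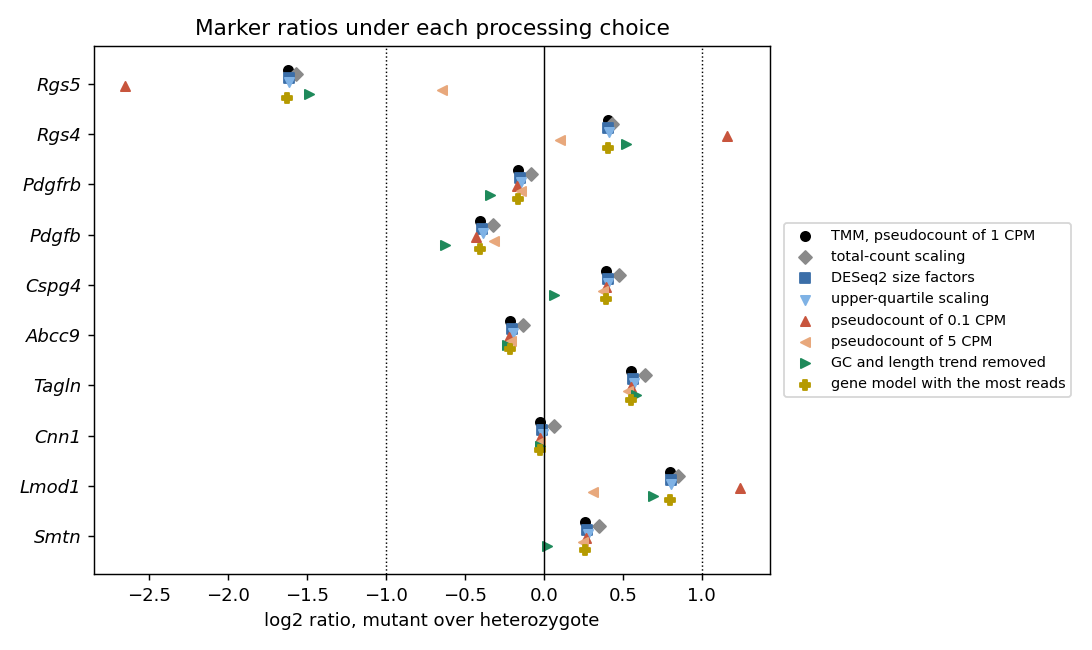
Log2 ratio of mutant over heterozygote for each marker (rows) under TMM scaling with a pseudocount of 1 CPM and under 7 alternatives, each with its own symbol. Rgs5 stays below 0 under all of them, from -2.65 to -0.64, Cnn1 is the single marker on both sides of 0, and Cspg4 and Smtn lie near 0 once the GC trend is removed.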

How the data were processed

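RNA came from 1 pool of 8 heart apices a genotype and was made into full-length transcript libraries, per the labels' protocols. The authors deposited whole-number read counts for 29595 gene models, CPM that divide these counts by the library's own total (recomputed to within 4.91e-11), a fold that is the ratio of heterozygote to mutant CPM, and a p-value of an unnamed test, per the file headers. The sources used here do not name the aligner, the counter, its use of strand or the build. Tables of single samples differed from the series table in 0 rows of counts.

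Rows of 1 symbol were summed and CPM rescaled by TMM (factors 0.970 and 1.03) in edgeR 4.0.16 under R 4.3.3. Ratios are plain ratios of scaled counts with 95% exact conditional Poisson intervals (scipy 1.17.1). These cover counting error only, because 1 library a genotype gives no spread between pools. Reads that carry no molecular identifier can be copies of 1 molecule, so the counting error itself may be larger than the intervals show. The log2 ratio has a pseudocount of 1 CPM, and genes at or above 1 CPM in a library were read against a 2-fold threshold. The procedure was tested on simulated data with counting error alone, in which the changed genes were well-read ones. The simulation did not cover spread between pools or changes in genes as scarce as Rgs5, Rgs4 and Lmod1. An alternative removed a trend, quadratic in the GC content and log length of the longest GENCODE M21 transcript, which was fitted to 10861 genes (mean at or above 5 CPM). Of the tested genes 13239 had both values, older symbols being matched through RefSeq synonyms. Other alternatives were total-count, upper-quartile and DESeq2 1.42.0 scaling, pseudocounts of 0.1 and 5 CPM, no floor, a floor of 5 CPM, and 1 gene model per symbol.

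The members and the 12 gene lists (150 of 157 entries were found) were chosen with earlier results of these data known. Named genes are the 10 markers, Ezh2, 8 genes set by name (Acta2, Myh11, Srf, Myocd, Notch3, Kcnj8, Pdgfa, Pdgfra) and, for each list, its 4 farthest genes past 2-fold, or the 2 most abundant where none was. Pericyte genes below the floor, genes near a marker and those in the closing section were named after their values were seen. So were the ends of the cardiomyocyte list. No gene was named for a pattern like a marker's, since 2 libraries give no measure of likeness.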

Additional observations from a re-analysis of the deposited data

How the results depend on the processing

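With 1 library a genotype no library could be left out. No paired analysis was possible because each genotype has a single library. Of 70 values for the 10 markers under 7 alternatives, 67 moved by less than the counting interval's half-width. That width is large for scarce markers, so that the moves of Rgs5 from -1.62 to -2.65 and to -0.64 stayed within it. The sign changed in 1 value (Cnn1, 0.06 under total-count scaling). The number of markers at least 2-fold lower was 1, and 0 with a pseudocount of 5 CPM or a floor of 5 CPM, while 1 marker (Lmod1) was 2-fold higher with a pseudocount of 0.1 CPM. Over all genes 28 were lower and 98 higher. With a pseudocount of 0.1 CPM these were 143 and 312, with 5 CPM 6 and 14, with a floor of 5 CPM 14 and 50, and once the GC trend was removed 21 and 62. With no floor, which adds Rgs4, the median of the markers was 0.12 in place of -0.02. Total-count scaling took the median of the other smooth muscle genes to 0.0043 and that of the cardiomyocyte markers to 0.013. Rgs5 and Rgl3, the named genes at least 2-fold apart, fell below 2-fold with a pseudocount of 5 CPM, at log2 ratios of -0.64 and 0.43. Rgl3 was also below it once the GC trend was removed (0.93). Both kept their sign under the 7 alternatives, though a change of pseudocount cannot alter a sign. Of 315 values of 45 named genes that are not markers, 12 had another sign. Among them were Myh7 (-0.02) and Tie1 (-0.03) without the GC trend, and Tpm1 (0.0045) and Col1a2 (0.0075) under total-count scaling. Depth limits Rgs4 and Rgs5 most, since 3 counts stand for 0.222 CPM in the heterozygous pool and 0.206 CPM in the mutant.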

Other observations

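Relatives of the smooth muscle markers, singled out after their values were seen, went both ways. Smtnl2, a smoothelin-like gene, had 996 reads in the heterozygous pool and 1579 in the mutant (ratio 1.47, 1.36 to 1.60), and the tropomyosin gene Tpm2 had 1680 against 2673 (1.48, 1.39 to 1.57), ratios close in size to that of Tagln. Lmod2, the leiomodin of heart muscle, was lower, with 2045 against 1635 (0.743, 0.696 to 0.793), while Lmod1 was higher. Among RGS genes, Rgs6, a regulator known from pacemaker cells, had 170 reads against 248 (1.36, 1.11 to 1.66) and Rgs2, a regulator of vascular tone, 314 against 260 (0.769, 0.650 to 0.910).

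Genes next to the markers, also singled out after their values were seen, showed the following. Odf3l1, 0.424 kb from Cspg4, had 21 reads in the heterozygous pool and 8 in the mutant (ratio 0.354, 0.136 to 0.832), opposite in direction to Cspg4. Selm, 0.171 kb from Smtn, had 686 against 1057 (1.43, 1.30 to 1.58). Rgl3, 110 kb from Cnn1, had 10 against 40 (3.72, 1.83 to 8.33).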
